A study of Mus musculus with 5 samples.

Results

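The windows around transcription start sites (TSSs) with the highest nucleosome signal were examined, 0.999% of the 36447 distinct windows with any signal. Each window reaches 1000 bp to the left and right of its TSS, as 200 bins of 10 bp. The signal comes from ATAC-seq, in which the Tn5 transposase cuts accessible DNA and the lengths of the fragments show where nucleosomes lie. The members were chosen by the level of the signal itself: each library was divided by its mean over the distinct windows, which gives a relative signal with a mean of 1, the wild-type and knockout means were averaged with equal weight, and the windows with the highest mean of this average (M) were taken. The level of the members against other windows is therefore a description and was not tested. The rule did not use the difference between genotypes or the place of the signal within a window.

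All 5 libraries came from mouse pre-B cell leukaemia cells of the C57BL/6J strain that overexpress BCR-ABL1, an active kinase fusion, and are null for p19. The 2 wild-type libraries (replicates 1 and 3) are labelled wild type for PHF6, and the 3 knockout libraries (replicates 1, 2 and 3) are also null for PHF6, a chromatin-associated nuclear protein with zinc-binding domains. No source used here says whether replicates were separate clones, cultures or animals, so the p-values measure only the spread between these libraries, which may be technical. In such bulk samples, a change in the share of cells with a nucleosome at a site and a change in its signal per cell cannot be told apart.

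An active mammalian promoter keeps its start site largely free of nucleosomes, so that transcription factors and RNA polymerase can bind, and the nucleosomes on either side are held at set positions. Chromatin remodellers space these flanking nucleosomes, and their order fades with distance from the start site. A strong nucleosome signal in ATAC-seq needs both a well-placed nucleosome and open DNA beside it, since the transposase has to cut there.

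The rows carry no gene name, coordinate or strand. Windows are cited by row number in the files, no sequence can be tied to them, and neither Phf6 nor the markers of pre-B cells could be looked up. Upstream cannot be told from downstream, so regions are symmetric about the TSS: the central trough within 50 bp, the flanks at 50 to 200 bp, and the outer parts at 700 to 1000 bp. Knockout replicate 3 stood apart in the whole series, with a mean deposited signal of 0.323 against 0.545 to 0.614 in the other libraries, and 65.4% of its bins at 0 against 44.5% to 52.8%. In the members the gap was smaller, with 23.4% of bins at 0 against 16.6% to 18.8%.

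The 2 highest windows lay far above the rest. The window in row 22298 had an M of 113.9 and that in row 20025 of 48.8, while the third reached 9.14. From there the level fell slowly, with an M of 7.41 at rank 10, 5.66 at rank 50 and 5.07 at rank 100, and a median of 4.70 over the members against 0.582 over all windows. The last members inside the threshold were rows 6582 (M = 4.18) and 11371 (M = 4.17), and the first windows outside it were rows 2881 (4.17) and 3193 (4.16). Membership near the threshold thus rests on differences far smaller than those between libraries: row 6582 ranged from 2.41 in wild-type replicate 3 to 7.64 in knockout replicate 2.

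**Figure D1:**
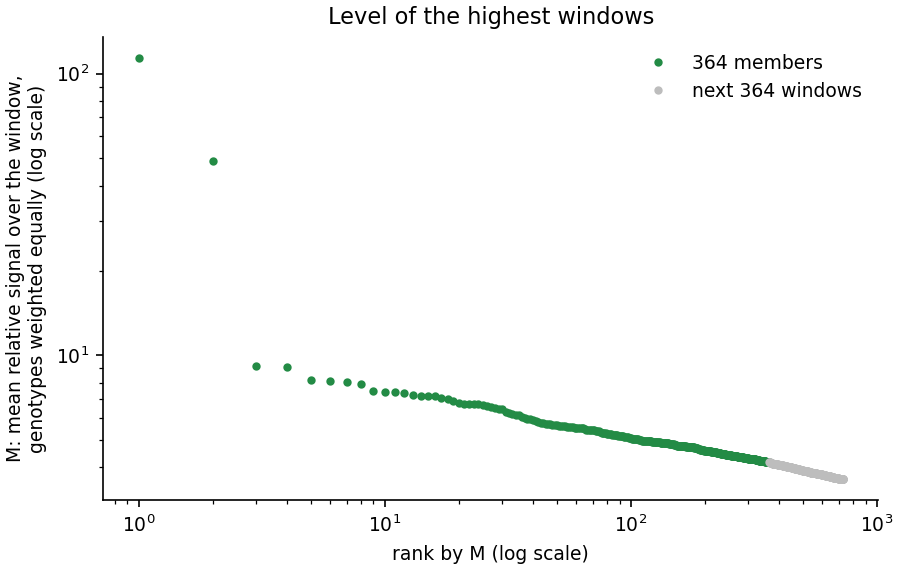
M, the mean relative signal over the window with the genotypes weighted equally (log scale), against rank (log scale) for the members (green) and an equal number of next windows (grey). The first 2 points lie at 113.9 and 48.8, and the others form a continuous slope with no step at the threshold.

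In row 22298 most of the signal stood in one block. Its strongest bin lay at -255 bp in all 5 libraries, and 10 or 11 bins exceeded 0.5 of that maximum. The mean relative signal of the window was 114.3 and 109.7 in the wild-type pair, then 116.7, 91.8 and 138.8 in the knockout libraries by replicate number, so that the genotypes overlapped. Its bin maximum was 1672, 1540, 1571, 1246 and 1841 in the same order. Row 20025 had 46.0 and 45.1 in the wild-type pair, then 48.3, 49.3 and 58.9 in knockout, with the knockout libraries all higher, by a factor of 1.14 (limma adjusted p = 0.920). Its strongest bin lay at 495 or 505 bp, and 141 to 146 of its 200 bins held no signal. A second block covered the TSS itself, where the relative signal was 231 and 244 in the wild-type pair, then 193, 154 and 155 in knockout. The 2 windows together held 0.387% to 0.542% of each library's summed signal. They weigh on every average of the members, so averages are given with and without them.

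Many members cover the same signal as another member. The profiles of all member pairs were compared at every shift that left at least 1000 bp in common, over the 5 libraries end to end. In 77 of 66066 pairs Pearson's r exceeded 0.97 in the same column order, and in 0 pairs in reversed order. No pair lay between 0.949 and 0.985, so overlapping windows separated cleanly from the others. The 77 pairs joined 142 members into 69 groups (65 of 2 windows and 4 of 3), and with the 222 members that stood alone the members came down to 291 loci. The starts within a pair lay 30 to 800 bp apart, with a median of 240 bp. Counts of members are therefore not counts of separate loci, and loci are given beside them. Whether the starts of a group belong to 1 promoter cannot be told without coordinates.

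Most members had the form of an open promoter. By the shape of M, 253 members (69.5%) had a trough below 0.5 of their flanks and are called open here, 67 (18.4%) had more signal over the TSS than at the flanks and are called filled, and 44 (12.1%) lay between. In the windows that follow by level, equal in number and called the next windows below, the shares were 65.1%, 19.2% and 15.7%. Of the 69 overlapping groups, 28 held windows of more than 1 class and 16 held both an open and a filled window. Rows 23001 and 16141 are such a pair: the first has a trough between 0 and 0.0807 in the 5 libraries, and the second, on the same signal, a central level of 6.81 to 33.9.

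The strongest bin of M lay 50 to 200 bp from the TSS in 171 members (47.0%), 200 to 400 bp away in 116 (31.9%) and 400 to 700 bp away in 47 (12.9%), while 17 members had it within 50 bp and 13 beyond 700 bp. In the next windows, 198 (54.4%) had it at 50 to 200 bp and 99 (27.2%) at 200 to 400 bp. The strongest bin fell within 20 bp in all 5 libraries in 138 members (37.9%), against 108 of the next windows (29.7%). These shares describe windows that share libraries and loci, and were not tested.

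The form of the signal inside a member was much alike in all libraries. Across its 200 bins, a member's median Pearson correlation was 0.787 between the wild-type libraries, 0.834 to 0.888 between knockout libraries and 0.750 to 0.829 between genotypes. The next windows gave 0.733, 0.769 to 0.835 and 0.673 to 0.762. These are correlations across neighbouring bins, which are not independent, and serve as a description. The strongest 20 of the 200 bins held a median of 61.3% and 59.4% of a member's signal in the wild-type pair, then 61.6%, 60.7% and 59.6% in the knockout libraries. The genotypes overlapped in this concentration of signal (exact permutation p = 0.7).

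The first comparison asked whether the promoters of highest signal differed with the loss of PHF6. The members held a larger part of the signal in the knockout libraries. Their share of the summed signal was 4.68% and 4.31% in the wild-type pair (replicates 1 and 3, in this order throughout), then 5.63%, 6.54% and 6.40% in knockout replicates 1, 2 and 3. Every knockout library exceeded both wild-type libraries, with 6.19% ± 0.491 (SD, n = 3) against 4.49% ± 0.263 (SD, n = 2), a factor of 1.38. This is the level the rule selected on, and a member can enter through either genotype: 119 members were among the highest by the knockout mean only and 72 by the wild-type mean only. The share, the levels of flanks and outer parts, and the counts of members higher in knockout are therefore given as descriptions. The ratios of regions and the share of members with an open trough are built from the same signal. Their p-values are not free of the choice of members and are descriptions too. Without the 2 highest windows the shares were 4.24% and 3.88% in the wild-type pair, then 5.18%, 6.16% and 5.86% in knockout. A larger share in every knockout library was not particular to the members. The next windows held 3.53% and 3.20% against 3.93%, 4.61% and 4.45%, a factor of 1.29. The rest of the 25% with the highest M held 52.9% and 48.4% against 55.1%, 60.7% and 61.1%, a factor of 1.16.

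This share is the same however a library is scaled, but the level is not. As deposited, the members' mean signal was 2.55 and 2.37 in the wild-type pair, then 3.46, 3.75 and 2.07 in knockout replicates 1, 2 and 3. Knockout replicate 3 thus lay below both wild-type libraries, and the genotypes overlapped. When the windows were chosen on replicate 1 of each genotype and measured in the other 3 libraries, 281 of them were also members, and their share was 4.13% in wild-type replicate 3, 6.18% in knockout replicate 2 and 6.00% in knockout replicate 3. With 1 library against 2 the smallest exact permutation p is 0.333, which this comparison gave.

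The flanks and the outer parts both had more signal in every knockout library. Flank signal was 9.78 and 8.73 in the wild-type pair, then 11.9, 13.8 and 13.5 in knockout replicates 1, 2 and 3. This is 9.25 ± 0.746 (SD, n = 2) against 13.1 ± 1.05 (SD, n = 3), a factor of 1.41 with no overlap. The outer parts differed less, at 1.95 and 1.94 against 2.27, 2.65 and 2.52, a factor of 1.27, again with no overlap. Without the 2 highest windows the flanks were 9.16 and 8.16 against 11.2, 13.2 and 12.6. The ratio of flanks to outer parts was 5.01 and 4.49 in the wild-type pair, then 5.22, 5.22 and 5.35 in knockout (exact two-sided permutation p = 0.1, adjusted over the 15 single values compared 0.188; no comparison of 2 with 3 libraries can give a smaller p). The difference of 0.514 was 0.257 with wild-type replicate 3 left out and 0.771 with replicate 1 of wild type left out. Over all windows this ratio was also higher in every knockout library, at 2.38 and 2.13 against 2.52, 2.99 and 2.94. The factor was 1.25 there and 1.11 in the members, and in the next windows it was 1.08. As deposited, the flank and outer levels overlapped between genotypes, with knockout replicate 3 lowest in both (4.35 and 0.813).

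At the central trough the genotypes overlapped. Its mean over the members was 4.61 and 5.19 in the wild-type pair, then 4.99, 5.07 and 5.56 in knockout (exact permutation p = 0.6), and the difference of 0.312 changed sign to -0.0963 with the deposited values. Without the 2 highest windows the trough was 3.99 and 4.54 against 4.48, 4.67 and 5.15 (exact permutation p = 0.3). The median trough was lower than the mean in every library. It was 1.30 and 1.76 in the wild-type pair, then 1.11, 0.561 and 1.22 in knockout, with all 3 knockout libraries lower (exact permutation p = 0.2). Flank signal divided by trough signal, taken on the members' average profile, was 2.12 and 1.68 in the wild-type pair, then 2.38, 2.73 and 2.42 in knockout (exact permutation p = 0.1). The difference of 0.605 was 0.384 without wild-type replicate 3 (exact permutation p = 0.5). Without the 2 highest windows it was 2.30 and 1.80 against 2.50, 2.83 and 2.44. This ratio needs no scaling between libraries, but its flank signal is part of the level the rule selected on. It was also higher in every knockout library outside the members. In the next windows it was 1.98 and 1.68 against 2.64, 3.22 and 3.04, a factor of 1.62. Over all windows it was 1.61 and 1.41 against 1.89, 2.32 and 2.01, a factor of 1.37, where the members had 1.32.

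More single members had an open trough in knockout cells. The share with a trough below 0.5 of the flanks was 67.9% and 63.7% in the wild-type pair, then 73.9%, 75.3% and 72.3% in knockout (exact permutation p = 0.1, adjusted p = 0.188). In the next windows the open share was 63.5% and 61.3% against 69.5%, 72.0% and 73.1%, and in the rest of the 25% with the highest M it was 63.6% and 59.4% against 69.1%, 74.3% and 70.1%, the same direction as in the members. Over all windows the genotypes overlapped (exact permutation p = 1). The share with more signal over the TSS than at the flanks was 21.4% and 22.0% in the wild-type pair, then 17.0%, 14.8% and 19.5% in knockout (exact permutation p = 0.2). Empty troughs, with all bins at 0, accounted for 6.04% and 5.22% in the wild-type pair, then 7.42%, 12.1% and 7.69% in knockout (exact permutation p = 0.3). Only 2 members, rows 20405 and 11938, had an empty trough in all 5 libraries; both were named by the rule for the highest flank to trough ratio.

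**Figure D2:**
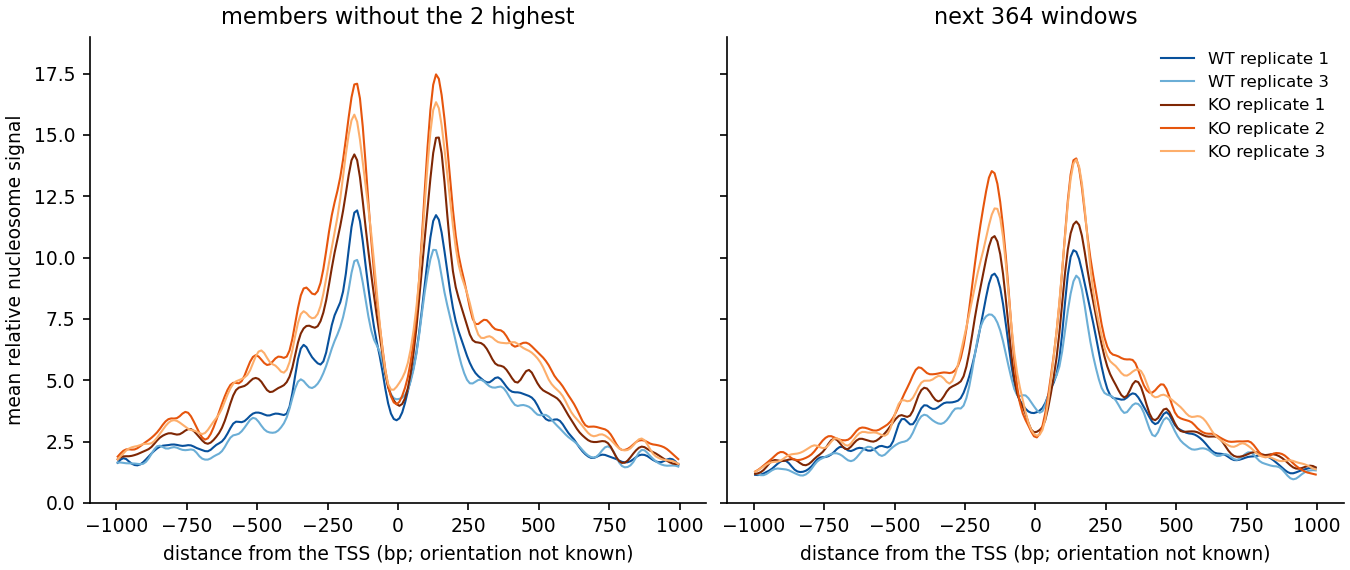
Mean relative nucleosome signal against distance from the TSS (bp) in each library, for the members without the 2 highest windows (left) and the next windows (right). In the members the knockout lines lie above the wild-type lines at both flanks, and at the centre the 5 lines lie between 3.37 and 4.61; in the next windows the knockout lines are the lower ones at the centre, at 2.67 to 2.88 against 3.66 to 3.67.

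The average profile of the members without the 2 highest windows had its left maximum at -145 bp in wild type and at -155, -145 and -155 bp in the knockout libraries, with its right maximum between 125 and 145 bp. The right maximum reached 11.7 and 10.3 in the wild-type pair, then 14.9, 17.5 and 16.3 in knockout. When the profile of all members was folded about the TSS, the block of row 22298 gave the next maximum at 235 or 245 bp in 4 libraries; without the 2 highest windows this maximum lay at 335 and 345 bp in wild type, at 315 and 325 bp in knockout replicates 2 and 3, and none was found in knockout replicate 1. From the strongest bin on the left to that on the right, each within 400 bp of the TSS, the median distance was 350 and 340 bp in wild type and 360 bp in each knockout library (exact permutation p = 0.1, adjusted p = 0.188), a difference of 1 to 2 bins. The genotypes overlapped in the next windows, at 340 and 330 bp against 340, 350 and 350 bp. Over all windows they also overlapped, at 380 and 380 bp against 380, 370 and 360 bp.

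The flanks were higher in every knockout library in each class. In open members the flanks were at 11.3 and 9.88 in the wild-type pair, then 13.7, 16.3 and 15.9 in knockout, and the trough at 1.28 and 1.83 against 1.17, 1.16 and 1.61, which overlapped (exact permutation p = 0.5 for the trough). In filled members without row 20025 the centre itself was higher in knockout, at 16.3, 18.0 and 18.3 against 13.2 and 13.5, a factor of 1.31. Their flanks were at 4.76 and 4.80 in the wild-type pair, then 5.72, 6.26 and 6.23 in knockout. Mean signal was thus higher in knockout libraries over the start in filled members without row 20025, and beside the start in each class. In row 20025, and on average in the filled windows among the next windows, the centre was lower in every knockout library. The classes were cut on M and the rule selected on the level, so these levels are descriptions. These 26 values by class and by median were chosen after the data were seen, and the lowest adjusted p among them was 0.162 (exact permutation tests).

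The next windows by level were compared with the members at the centre. Their trough was 3.86 and 4.06 in the wild-type pair, then 3.28, 3.24 and 3.29 in knockout, lower in every knockout library, while their flanks were 7.66 and 6.80 against 8.67, 10.4 and 10.0. The log2 flank to trough ratio of the members minus that of the next windows was 0.10 and 0.01 in the wild-type pair. In knockout it was -0.15, -0.24 and -0.33, a difference of -0.29 (exact permutation p = 0.1, adjusted p = 0.188). Both sets were cut on the level, and every knockout library lay above in 59.3% of members and 48.9% of next windows. The p-values of this contrast are therefore descriptions. The contrast was not stable to the choice of windows. Its difference was -0.11 with 0.5 times as many members and 0.003 with 2 times as many (exact permutation p = 0.5 and 1). For windows chosen on replicate 1 of each genotype and measured in the other libraries, the difference was -0.0547. The contrast was then -0.100 in wild-type replicate 3, and -0.131 and -0.180 in knockout replicates 2 and 3. In the filled windows among the next windows the centre was 10.7 and 10.9 in the wild-type pair, then 9.97, 10.5 and 10.0 in knockout.

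**Figure D3:**
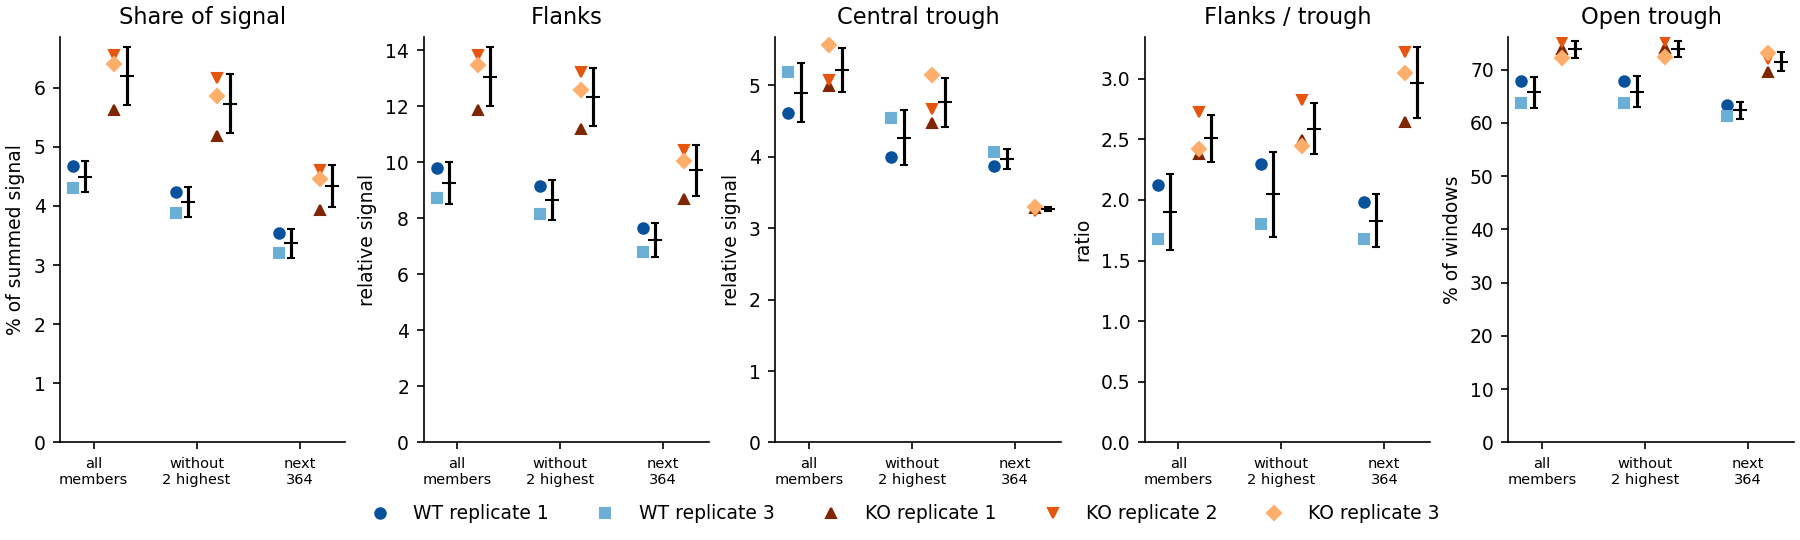
Values in each library (points), with the mean and SD of 2 wild-type and 3 knockout libraries (bars), for all members, the members without the 2 highest windows, and the next windows: percent of summed signal, flank level, central trough level, flank to trough ratio, and percent of windows with an open trough. Flanks are higher in every knockout library in all 3 sets, while the trough overlaps between genotypes in all members and is lower in knockout in the next windows.

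Fewer separate peaks were seen per member in knockout cells. With a peak taken as a local maximum above the window's mean and at least 10 bins from a higher one, a member held an average of 6.93 and 7.30 peaks in wild type and 6.40, 5.94 and 6.34 in knockout (exact permutation p = 0.1). The median gap between neighbouring peaks was 220 and 210 bp in wild type and 220, 230 and 230 bp in knockout (exact permutation p = 0.3). The next windows gave 7.26 and 7.31 peaks in wild type and 6.80, 6.12 and 6.55 in knockout, also lower in knockout. Left and right flanks were unequal in both genotypes: the median of their difference over their sum was 0.585 and 0.527 in the wild-type pair, then 0.592, 0.665 and 0.611 in knockout (exact permutation p = 0.2).

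The second comparison asked which single members differed, in a limma fit to log2(relative signal + 0.1) of all 36447 windows. No member and no window passed an adjusted p of 0.05 for the whole window (0% called), the trough (0%) or the contrast of flanks and trough (0%). At an unadjusted p under 0.05 in limma there were 136 members for the whole window, 134 of them higher in knockout, where 11.2% of all windows (4089) lay under that value; 34 members for the trough, against 6.98% of all windows; and 38 for the contrast, against 8.08%. The whole-window split moved with the scaling: quantile normalization gave 92 members, 68 higher and 24 lower, and the deposited values gave 18, 17 higher and 1 lower. The whole-window counts of members are on the level the rule selected on and are given as descriptions. The median log2 difference was 0.47 over the members and -0.21 over all windows. It was 0.29 and -0.29 with the deposited values, and 0.06 and -0.01 after quantile normalization.

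The knockout mean was above the wild-type mean in 336 members and below it in 28, with a median factor of 1.40 and a range of 0.533 to 2.88. In 216 members (59.3%, in 172 loci) every knockout library lay above every wild-type library, against 9.69% of all windows, and in 10 members (2.75%, in 8 loci) every knockout library lay below, against 20.4% of all windows. Outside the members the share was 48.9% in the next windows and 25.6% in the rest of the 25% with the highest M, with 5.49% and 6.77% in the other direction. Every window is measured in the same 5 libraries, which move these shares jointly.

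**Figure D4:**
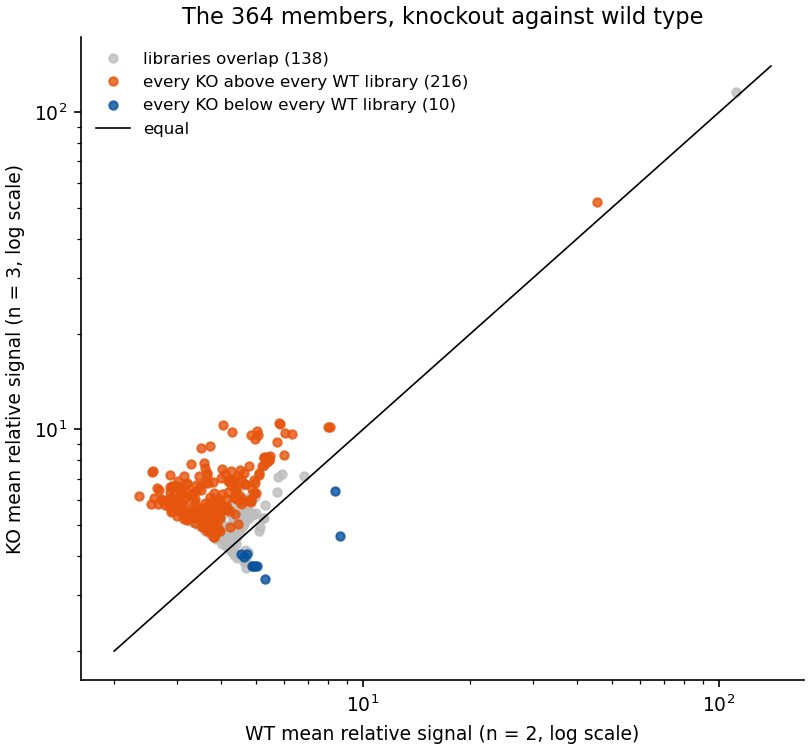
Mean relative signal of each member in wild type (horizontal, n = 2) and knockout (vertical, n = 3), both on a log scale; the line marks equal values. Orange points (216) have every knockout library above every wild-type library, blue points (10) every knockout library below, and grey points (138) overlap; the lower left edge of the cloud is set by the choice of members on the mean of both genotypes.

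By region, every knockout library was above both wild-type libraries at the flanks in 149 members (40.9%, against 9.61% of all windows) and below in 20 (5.49%, against 13.7%). At the trough the counts were 58 above (15.9%, against 4.77%) and 49 below (13.5%, against 14.5%). In the next windows the flanks were above in 111 (30.5%) and below in 23 (6.32%). Their trough was above in 30 (8.24%) and below in 90 (24.7%). Flanks above together with trough below were found in 15 members (4.12%, against 1.12% of all windows and 6.59% of the next windows). Both were above in 32 members (8.79%, against 1.27% of all windows and 4.12% of the next windows).

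When the 25% of windows with the lowest M were left out, limma called 53 members (14.6%, in 42 loci) at an adjusted p of 0.05, of which 52 rose and 1 fell in knockout; among the 27335 windows tested 0.637% were called. The level tested is the one the rule selected on, and a member could reach it through the knockout mean alone. These counts and shares are therefore descriptions. Of the 53, 36 were open, 7 intermediate and 10 filled, and the 52 that rose had factors of 1.79 to 2.88 with a median of 2.13. The number turned on single libraries: it was 11 (of 27 windows called in all) without knockout replicate 2, and 17 and 4 (of 46 and 7) when wild-type replicates 1 and 3 were left out in turn, where in the last 2 the single wild-type library left is taken to have the spread of the knockout group. Without knockout replicate 1 or 3 it was 61 and 38, of 195 and 181 windows called. With the replicate number as a block it was 23 of 58. The windows tested in both fits are the same for the members, but limma's spread is estimated over different windows.

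The members with the smallest p among those higher in knockout were rows 23001, 16141, 17706 and 21239, and the first 2 are the same locus. Their wild-type means were 2.55, 2.57, 2.35 and 2.87 in this order, below 4.17, the lowest M of a member. They are members through their knockout level, on which the p-values were also computed, so these p-values are descriptions. In row 23001 the relative signal was 2.51 and 2.59 in the wild-type pair, then 6.13, 8.93 and 6.98 in knockout replicates 1, 2 and 3. The groups lay far apart, with 2.55 ± 0.0576 (SD, n = 2) against 7.35 ± 1.43 (SD, n = 3); on the log2 scale they differed by 1.47 (SE 0.27, limma adjusted p = 0.133 over all windows and 0.000244 without the lowest 25%). The difference lay at the flanks, with 9.58 and 10.3 against 27.6, 46.7 and 39.8, while the trough was at or near 0 in all libraries.

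Row 17706 had 2.48 and 2.22 in the wild-type pair, then 5.89, 6.37 and 6.23 in knockout, with knockout libraries close to each other. Its signal was a narrow block with the strongest bin at 85 bp in all 5 libraries, whose height was 49.6 and 49.3 in the wild-type pair, then 153.6, 150.3 and 145.5 in knockout (log2 difference of the window 1.36, SE 0.26; limma adjusted p = 0.133). Row 21239 had 2.71 and 3.03 in the wild-type pair, then 6.51, 8.27 and 6.69 in knockout (limma adjusted p = 0.191). As deposited, knockout replicate 3 also exceeded both wild-type libraries in these windows, at 2.25 against 1.37 and 1.42 in row 23001 and 2.01 against 1.35 and 1.22 in row 17706.

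Of the members lower in knockout, row 22299 stood out. Its relative signal was 8.76 and 8.49 in the wild-type pair, then 5.63, 4.43 and 3.74 in the knockout libraries, and the deposited values were also lower in each knockout library (3.45, 2.53 and 1.21 against 4.77 and 4.67). The log2 difference was -0.91 (SE 0.28; limma adjusted p = 0.314 over all windows, 0.0208 without the lowest 25% and 0.0267 after quantile normalization). Its signal was a single narrow block: the strongest bin lay at 95 bp in every library, 4 or 5 bins exceeded 0.5 of its height, and 129 to 184 of the 200 bins were at 0. The height was 333 and 307 in the wild-type pair, then 250, 200 and 176 in knockout. The block thus kept its place while its height differed.

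The other members lower in knockout differed less. Row 731 had 5.44 and 5.14 in the wild-type pair, then 4.31, 2.31 and 3.53 in knockout (limma adjusted p = 0.409). Row 31041 had 5.21 and 4.87 against 3.50, 4.48 and 3.12, and row 1254 had 4.73 and 5.21 against 3.48, 3.88 and 3.73 (limma adjusted p = 0.530 and 0.544). In these 3 windows the groups did not overlap, but the gaps were small against the spread among knockout libraries in rows 731 and 31041. Their knockout means were 3.38, 3.70 and 3.70, below 4.17, the lowest M of a member, so they are members through their wild-type level.

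**Figure D5:**
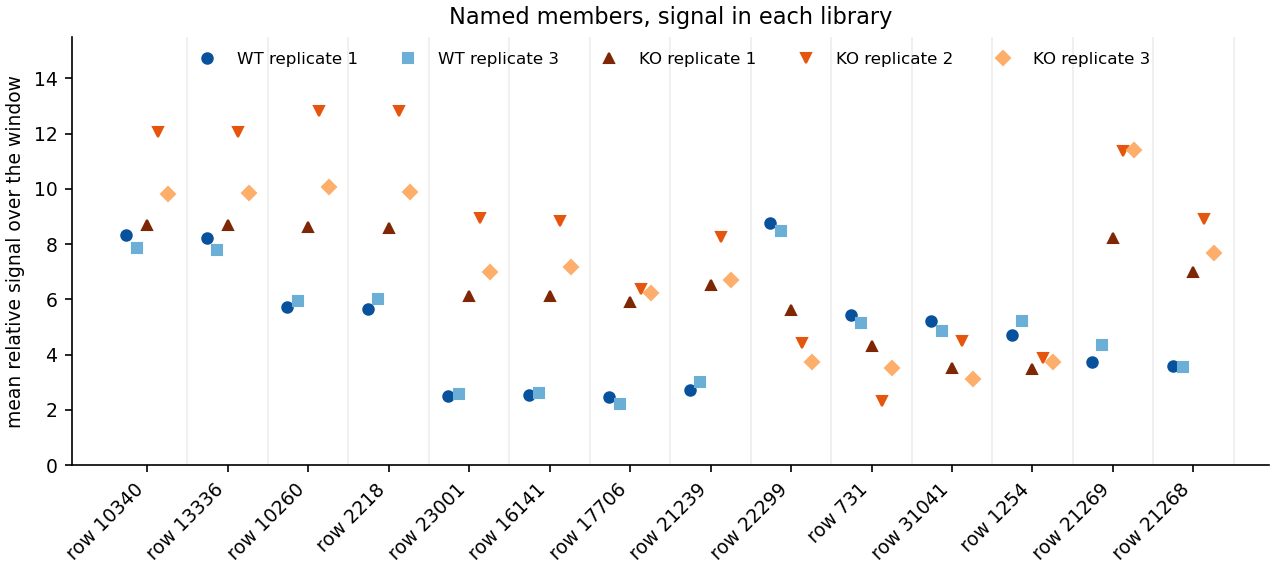
Mean relative signal over the window in each of the 5 libraries for 14 named members: ranks 3 to 6, the 4 with the smallest p in each direction, and the 2 with the lowest flank to trough ratio. Rows 10340 and 13336, 10260 and 2218, and 23001 and 16141 are pairs of overlapping windows and so show nearly the same values; row 22299 is the one with the largest decrease.

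After the 2 highest windows, ranks 3 to 6 are 2 loci, each seen from 2 start sites. Rows 10340 and 13336 had a mean level of 8.32 and 7.84 in the wild-type pair, then 8.70, 12.1 and 9.83 in knockout (row 10340). At this locus the signal over the TSS was 16.7 and 28.2 in wild type but 4.73, 0.0304 and 0 in knockout replicates 1, 2 and 3, while the flanks were 13.8 and 9.01 against 14.4, 23.6 and 26.0. The groups did not overlap at the trough, and the contrast of flanks and trough differed by 6.66 on the log2(value + 0.1) scale (SE 2.30; limma adjusted p = 0.590). Rows 10260 and 2218 had 5.72 and 5.93 in the wild-type pair, then 8.62, 12.8 and 10.1 in knockout (row 10260; limma adjusted p = 0.366). Their strongest bins, within 20 bp of -155 bp in the first window and of 155 bp in the second, are the same nucleosome.

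Rows 21269 and 21268 had the lowest flank to trough ratios: nearly all of their signal near the start lay on the TSS, with the strongest bin at -5 bp in row 21269 and at 5 or 15 bp in row 21268. In row 21269 the central level was 36.6 and 39.0 in the wild-type pair, then 84.2, 115 and 99.6 in knockout, and the flanks were 1.13 and 0.335 against 1.78, 1.89 and 2.33. The whole window had 3.73 and 4.35 against 8.22, 11.4 and 11.4 (log2 difference 1.32, SE 0.29; limma adjusted p = 0.201 over all windows and 7.8e-05 without the lowest 25%). Row 21268 had a central level of 32.1 and 38.1 in the wild-type pair, then 65.9, 99.1 and 77.7 in knockout (limma adjusted p for the whole window 0.221). At the other extreme, row 11938 had no signal in its trough and 2.96 and 2.30 over the window in wild type against 5.60, 7.80 and 6.21 in knockout (limma adjusted p = 0.192). The wild-type means of rows 21269, 21268 and 11938 were 4.04, 3.58 and 2.63, below 4.17, the lowest M of a member. Their whole-window p-values are on the level that made them members and are descriptions.

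Among members whose contrast of flanks and trough was higher in knockout, rows 8187, 18072 and 8952 had the smallest p, though the log2 difference was larger in rows 10340 and 13336 (6.66 and 6.64) than in any of them. In row 8187 the trough was 1.01 and 1.70 in the wild-type pair, then 0, 0 and 0.003 in knockout, while the flanks were 13.3 and 17.5 against 18.0, 21.8 and 24.5, close but without overlap (log2 difference 4.29, SE 0.42; limma adjusted p = 0.557). In row 8952 the trough was 6.55 and 10.6 against 0.053, 0.135 and 0.607. In the other direction, row 33546 had a trough of 0.187 and 1.11 in the wild-type pair, then 6.93, 6.23 and 10.8 in knockout, with flanks of 3.70 and 9.91 against 6.43, 7.89 and 7.63 (limma adjusted p = 0.557). Row 9565 had 0.246 and 0.290 against 3.48, 1.37 and 3.62 at the trough. These windows were named in each direction by rule, so that both directions occur among them is not a result. No member passed the threshold for this contrast.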

How the data were processed

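ATAC-seq nucleosome signal was available for 2 wild-type and 3 knockout libraries. The deposited signal per 10 bp bin was made by the authors with NucleoATAC, per the file names. Bowtie2, MACS2 and mouse build mm9 were used, per the submitters' processing notes; their versions and settings, the NucleoATAC track and any scaling between libraries are not given there. There are no counts, so depth is unknown. Of 37310 rows, 818 had no signal and 45 repeated another row. Each library was divided by its mean over the remaining 36447 windows, and the 364 windows with the highest M were taken. Windows were tested with limma 3.58.1 in R 4.3.3 (lmFit, eBayes with trend, Benjamini-Hochberg adjustment over all windows, pseudocount 0.1). The fit was also run on simulated data, with log-normal noise and changes larger than those of the members. That run does not show how the fit performs on these data. Single values per library were compared by exact permutation, in Python 3.11.15 with numpy 2.4.6 and scipy 1.17.1. Named windows were the 6 highest by M, the 4 with the smallest p in each direction, the 3 with the smallest contrast p in each direction, the 2 with the highest and lowest flank to trough ratio, and the 2 on either side of the threshold. Gene lists could not be used. The members and tests were chosen with earlier results of these data known; loci, classes, peaks and values without the 2 highest windows were added after seeing the data.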

Additional observations from a re-analysis of the deposited data

How the results depend on the processing

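The count of 0 members called for the whole window rose to 1 under quantile normalization (12 of all windows), to 2 at a pseudocount of 0.5 (7 of all windows) and to 53 without the 25% of windows of lowest M (174); it stayed 0 with the deposited values, a pseudocount of 0.01, scaling by the windows that are not members and the replicate block. Without 1 library it was 0 to 0 for the whole window and the contrast, and 0 to 20 for the trough, where 19 and 20 came without wild-type replicates 1 and 3, beside 3735 and 3236 of all 36447 windows, most of them lower in knockout. The count of 53 was 4 to 61 without 1 library and 23 with the replicate block. The labels say only that numbers 1 and 3 occur in both genotypes; deviations from group means correlated at 0.09 and 0.02 over the members. The difference in trough level (0.312) turned to -0.0963 with the deposited values, -0.189 with 2 times as many members and -0.0755 when members were chosen on replicate 1. The contrast with the next windows (-0.293) became 0.00278 with 2 times as many members, -0.107 with 0.5 times as many and -0.0547 when members were chosen on replicate 1. The second folded maximum (23.3 bp) differed by -3.33 bp with 0.5 times as many members, -8.33 bp with 1 window per locus and -5 to 40 bp without 1 library, and had no value in knockout replicate 1 without the 2 highest windows. Signal concentration (0.273 percentage points) went to -0.0141 with 0.5 times as many members, -0.0359 with the plain mean over libraries and -0.636 to 1.18 without 1 library. The cause of these changes was not tested. The other single values kept their direction under every alternative run. Bins at 0 in knockout replicate 3 and the unknown depth limit short regions.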

Other observations

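The windows that rank highest were not the same in every library. When an equal number of windows was taken by each library's own signal, 200 and 189 members were among those of wild-type replicates 1 and 3, and 246, 252 and 236 among those of knockout replicates 1, 2 and 3. In all 5 libraries 63 members ranked that high, and every member ranked in the highest 25% of each library. Equal numbers of windows taken by the wild-type mean and by the knockout mean had 165 in common (45.3% of each), all of them members. Of the other members, 119 were among the highest by the knockout mean only, 72 by the wild-type mean only and 8 by neither. The same overlap between 2 lists from 1 genotype was not computed, so the 165 in common cannot be read as a difference between genotypes.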
